A study of Mus musculus with 26 samples.

Results

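Olig2, Ptprtos, Lama3, Trpm1, Gprc5c, Zfp951, Napsa, Fgfr2, Serpina3m and Ttc39c are 10 of the 24421 genes in a count table from mouse embryonic stem cells (ESCs). They were chosen by their measured levels, which were far higher in knockout clones that express a mutant form of the nuclear receptor ERR beta than in knockout clones that express no receptor or the wild-type receptor. The levels in those clones are therefore a description and carry no test. The same holds for differences among the groups whose levels served in the choice. A test is read for the 10 genes only between KO/ERRg-wt and WT/Mock, which the choice did not use.

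RNA was sequenced from 14 clones in 7 groups of 2, and every clone was cultured with doxycycline at 2 µg/ml for 3 days after 1600 cells had been seeded. The medium holds PD, an inhibitor of the MEK kinase. WT/Mock cells are wild type at Esrrb, the gene of ERR beta, and express no added receptor. The other 6 groups are all ERR beta -/-. KO/Mock expresses no added receptor, KO/ERRb-wt expresses wild-type ERR beta, and KO/ERRg-wt expresses wild-type ERR gamma. KO/ERRb-DBDm3, KO/ERRb-DBDm6 and KO/ERRb-AF2M6 express ERR beta mutants described as deficient in binding of DNA, of the general transcription factor TFIIH and of coactivators, respectively. Below, the 6 clones of these 3 groups are called the mutant clones, and the 4 clones of KO/Mock and KO/ERRb-wt are called the comparison clones. The labels do not say how the clones of a group are related, so p-values measure only the spread between these clones, and a construct and the history of its clones cannot be told apart.

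ERR beta is an orphan nuclear receptor, a transcription factor that needs no known natural ligand, and it is part of the network of factors that keeps mouse ESCs pluripotent. It binds an extended half-site in DNA and recruits coactivators through its C-terminal activation domain. ERR gamma is a close relative that binds the same kind of site and is scarce in ESCs. The 10 genes belong to no single pathway. Olig2 encodes a transcription factor of motor neuron and oligodendrocyte progenitors, Fgfr2 a fibroblast growth factor receptor, Lama3 a laminin chain of epithelial basement membranes, Trpm1 a cation channel of retinal bipolar cells and melanocytes, Gprc5c an orphan receptor, Napsa an aspartic protease of lung and kidney, Serpina3m a serine protease inhibitor, Zfp951 a zinc finger protein, Ttc39c a tetratricopeptide repeat protein, and Ptprtos an RNA annotated on the strand opposite Ptprt.

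Promoters of 5 of the 10 genes (Olig2, Ptprtos, Trpm1, Fgfr2 and Zfp951) were present in the RefSeq promoter table for GRCm38.p6, the build also called mm10, as 7 windows of 300 bases that run from 250 bases before to 50 bases after a transcription start. The windows with the most and the fewest CpG dinucleotides are shown because both genes were high in the same clones while their promoters differ most in CpG content. Capitals mark each CpG. The Olig2 window is chr16:91225300-91225599 and the Ptprtos window is chr2:162390563-162390862, both on the plus strand.
Olig2: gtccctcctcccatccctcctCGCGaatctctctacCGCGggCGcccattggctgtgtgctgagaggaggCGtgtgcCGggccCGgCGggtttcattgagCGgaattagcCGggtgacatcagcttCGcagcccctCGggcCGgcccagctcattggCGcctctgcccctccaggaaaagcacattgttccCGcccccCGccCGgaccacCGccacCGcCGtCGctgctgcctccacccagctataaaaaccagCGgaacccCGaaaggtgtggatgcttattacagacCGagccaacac
Ptprtos: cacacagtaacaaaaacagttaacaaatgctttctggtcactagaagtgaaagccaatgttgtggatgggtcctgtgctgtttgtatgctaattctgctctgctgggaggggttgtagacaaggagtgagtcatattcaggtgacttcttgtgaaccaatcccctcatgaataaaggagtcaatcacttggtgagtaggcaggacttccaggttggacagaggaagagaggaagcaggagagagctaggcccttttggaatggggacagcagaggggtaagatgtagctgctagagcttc
The Olig2 window held 25 CpGs, and 83.1% of all 32851 promoters in the table held that many or fewer. The Ptprtos window held 0 CpGs, which 5.43% of promoters did. The Fgfr2 window held 4, the Trpm1 windows 2 and 6, and both Zfp951 windows 8, against a median of 7 over all promoters. The ERR response element TCAAGGTCA, searched on both strands, was in none of the 7 windows and in 0.423% of all promoters. Its core AAGGTCA, which the longer motif contains, was also in none of the 7, and in 4.72% of all promoters. That says only that these letters are not in these windows.

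Levels are CPM, read counts scaled to each clone's total with TMM normalization factors, after the 2 libraries of a clone were added. KO/ERRg-wt clones gave 1 library each. Library totals ran from 21276790 to 30021667 counts. All 10 genes passed the filter on low counts and shared no exonic base with another gene on their own strand. Esrrb itself had 276 and 277 CPM in KO/Mock, 410 to 553 CPM in the clones with added ERR beta, 466 and 477 CPM in KO/ERRg-wt and 560 and 603 CPM in WT/Mock. These counts do not separate the knocked-out gene from the construct, and the KO/ERRg-wt clones were above KO/Mock for Esrrb although the receptor they express is ERR gamma. Esrrg was at 229 and 124 CPM in KO/ERRg-wt and had at most 12 counts in every other clone. All 12 ESC markers examined, among them Pou5f1, Sox2 and Nanog, were detected in every group.

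The clones also differed over whole chromosomes, which touches every comparison below. Relative to WT/Mock, the median log2 level of chromosome 6 genes was between 0.0184 and 0.0429 in the 4 comparison clones, -0.336 and -0.337 in the KO/ERRg-wt clones, -0.414 in KO/ERRb-DBDm3 clone 9-6, and between -0.926 and -0.955 in the other 5 mutant clones. Chromosome 8 genes had medians from -0.43 to -0.536 in the 6 mutant and 2 KO/ERRg-wt clones and from 0.0173 to 0.0307 in the comparison clones. Chromosome 14 genes were lower in all 12 knockout clones, with medians from -0.51 to -0.624. None of the 10 genes lies on chromosome 6, 8 or 14. They lie on 7 chromosomes, with Trpm1, Napsa and Fgfr2 far apart on chromosome 7 and Lama3 and Ttc39c 60.5 kb apart on chromosome 18.

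All 6 mutant clones were above all 4 comparison clones for 9 of the 10 genes, and for 15.3% of all tested genes. The exception was Ttc39c, for which 4 of the 6 were. The ratio of the median mutant clone to the median comparison clone ran from 4.78 for Ttc39c and 6.81 for Gprc5c to 23.3 for Ptprtos and 33.6 for Olig2. All 10 genes passed the threshold as higher in each mutant group against KO/Mock, where 12.4%, 20.8% and 18% of the 15238 tested genes were called higher in KO/ERRb-DBDm3, KO/ERRb-DBDm6 and KO/ERRb-AF2M6. These contrasts are the ones that chose the genes, so nothing is read from the counts. A gene was called at a Benjamini-Hochberg adjusted p under 0.05 in edgeR's quasi-likelihood test over all tested genes.

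**Figure D1:**
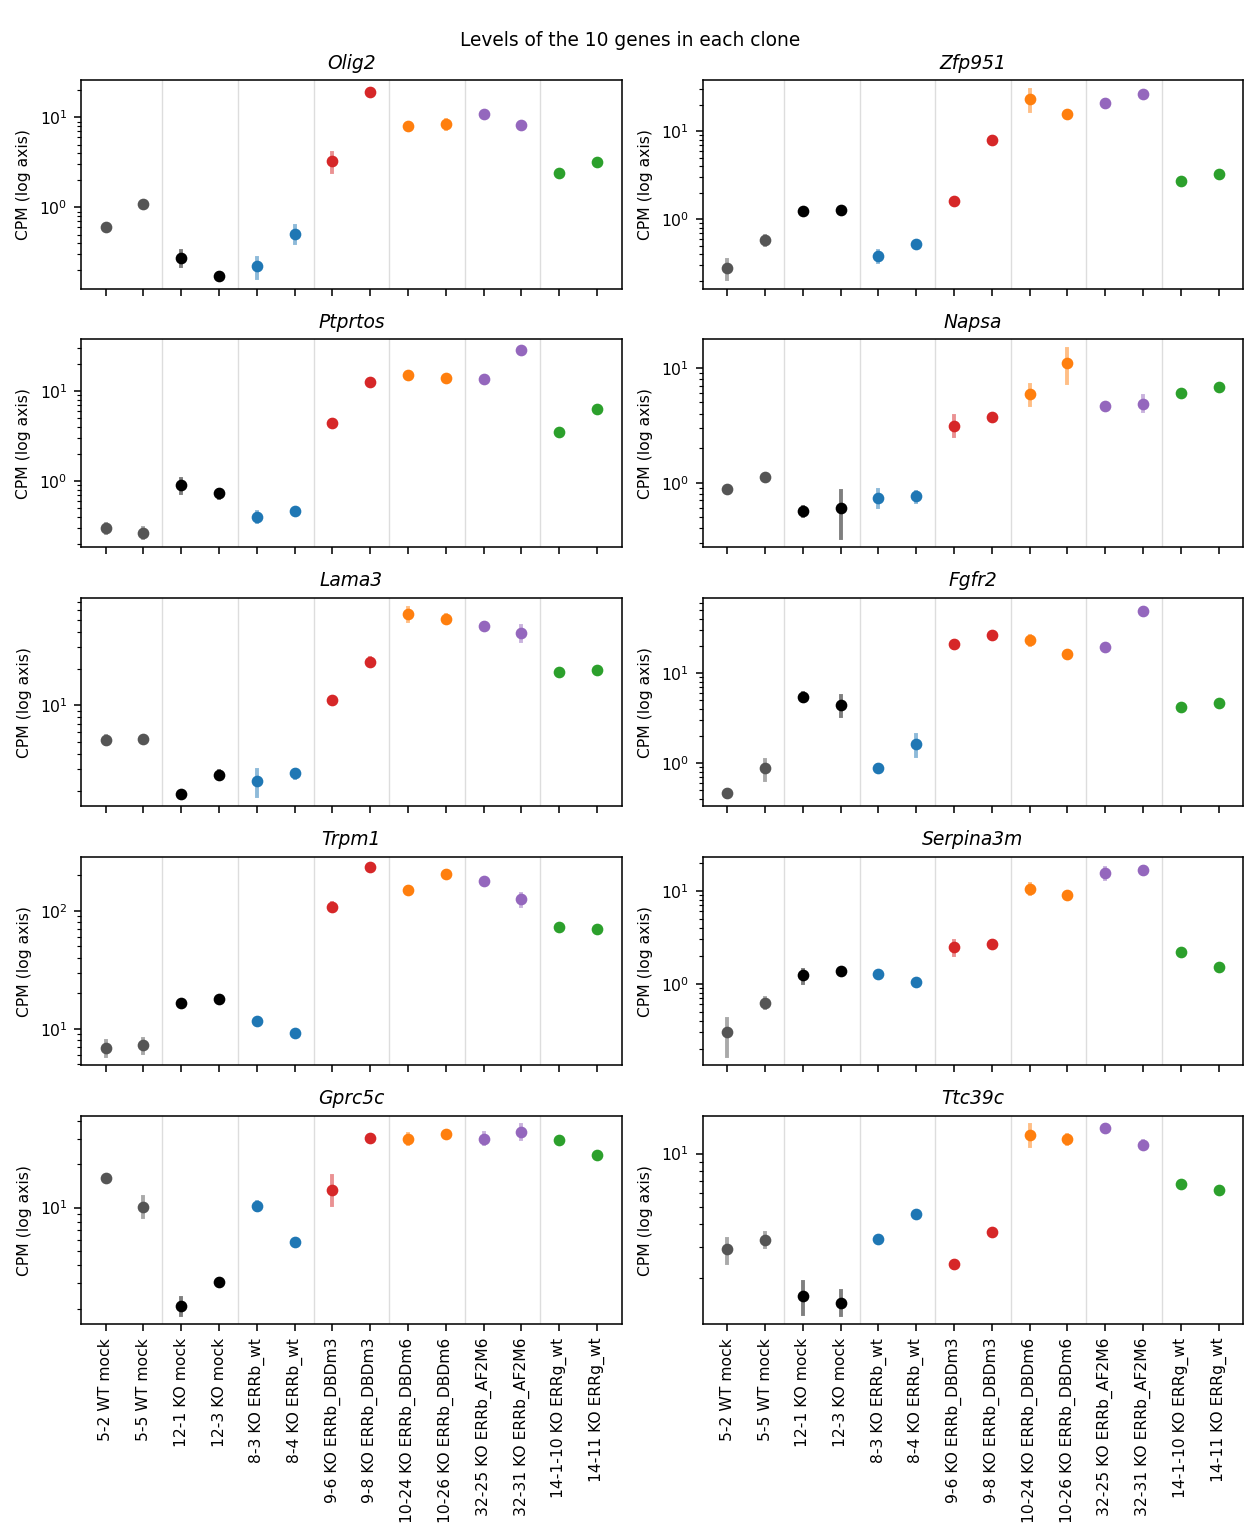
TMM-scaled CPM of each gene (vertical log axes) in the 14 clones (horizontal axis, labelled by clone and group, with WT_mock for WT/Mock and so on). Points are clones, bars span the 2 libraries of a clone where there are 2, and for Olig2 the mutant clones sit between 3.28 and 19 CPM and the comparison clones between 0.173 and 0.506 CPM.

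Olig2 (chromosome 16, 91225550 to 91228677, plus strand, 2 exon entries) had 0.599 and 1.09 CPM in the WT/Mock clones, 0.273 and 0.173 in KO/Mock, 0.221 and 0.506 in KO/ERRb-wt, 3.28 and 19 in KO/ERRb-DBDm3, 7.97 and 8.4 in KO/ERRb-DBDm6, 10.8 and 8.21 in KO/ERRb-AF2M6, and 2.44 and 3.2 in KO/ERRg-wt. The comparison clones were the lowest, the KO/ERRg-wt clones lay between WT/Mock and every mutant clone, and KO/ERRb-DBDm3 held both the lowest and the highest mutant value. The KO/Mock levels rest on 12 and 8 counts, so folds against that group are imprecise. Ptprtos (chromosome 2, 162390813 to 162393946, plus strand, 3 exon entries) had 0.3 and 0.268 CPM in WT/Mock, 0.91 and 0.736 in KO/Mock, 0.401 and 0.464 in KO/ERRb-wt, 4.46 and 12.7 in KO/ERRb-DBDm3, 15.2 and 14.2 in KO/ERRb-DBDm6, 13.8 and 29.1 in KO/ERRb-AF2M6, and 3.55 and 6.31 in KO/ERRg-wt. Here the KO/ERRg-wt clones overlapped with the lower KO/ERRb-DBDm3 clone. Ptprt, the receptor phosphatase gene that spans Ptprtos, stayed between 0.0803 and 0.664 CPM in 13 clones and was at 4.03 CPM in KO/ERRb-DBDm3 clone 9-8. The high Ptprt level of clone 9-8 had no counterpart in the KO/ERRb-AF2M6 clones, where Ptprtos was highest.

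Trpm1 (chromosome 7, 64153835 to 64269759, plus strand, 41 exon entries) had 6.83 and 7.29 CPM in WT/Mock, 16.7 and 18 in KO/Mock, 11.6 and 9.23 in KO/ERRb-wt, 108 and 236 in KO/ERRb-DBDm3, 151 and 206 in KO/ERRb-DBDm6, 181 and 126 in KO/ERRb-AF2M6, and 73.3 and 70.6 in KO/ERRg-wt. The 4 kinds of clone did not overlap: WT/Mock was lowest, then the comparison clones, then KO/ERRg-wt, then the mutant clones. Fgfr2 (chromosome 7, 130162451 to 130266808, minus strand, 34 exon entries) had 0.459 and 0.886 CPM in WT/Mock, 5.41 and 4.35 in KO/Mock, 0.883 and 1.64 in KO/ERRb-wt, 20.8 and 26.6 in KO/ERRb-DBDm3, 23 and 16.1 in KO/ERRb-DBDm6, 19.5 and 48.8 in KO/ERRb-AF2M6, and 4.2 and 4.58 in KO/ERRg-wt. It was the 1 gene for which the KO/ERRg-wt clones fell within the range of the comparison clones.

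Lama3 (chromosome 18, 12334024 to 12583012, plus strand, 75 exon entries) had 5.21 and 5.32 CPM in WT/Mock, 1.87 and 2.7 in KO/Mock, 2.39 and 2.78 in KO/ERRb-wt, 11.1 and 22.8 in KO/ERRb-DBDm3, 55.8 and 51.2 in KO/ERRb-DBDm6, 44.8 and 39.0 in KO/ERRb-AF2M6, and 18.8 and 19.6 in KO/ERRg-wt. The KO/ERRg-wt clones sat between both KO/ERRb-DBDm3 clones, and the KO/ERRb-DBDm6 and KO/ERRb-AF2M6 clones were above them all. Ttc39c (chromosome 18, 12643533 to 12737052, plus strand, 14 exon entries) had 2.9 and 3.28 CPM in WT/Mock, 1.59 and 1.45 in KO/Mock, 3.29 and 4.6 in KO/ERRb-wt, 2.39 and 3.62 in KO/ERRb-DBDm3, 12.7 and 12.1 in KO/ERRb-DBDm6, 14.0 and 11.2 in KO/ERRb-AF2M6, and 6.71 and 6.27 in KO/ERRg-wt. KO/ERRb-DBDm3 overlapped KO/ERRb-wt, so Ttc39c was above both comparison groups in 2 of the 3 mutant groups.

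Zfp951 (chromosome 5, 104813168 to 104860068, minus strand, 5 exon entries) had 0.28 and 0.577 CPM in WT/Mock, 1.23 and 1.28 in KO/Mock, 0.381 and 0.527 in KO/ERRb-wt, 1.61 and 8.01 in KO/ERRb-DBDm3, 23.2 and 15.5 in KO/ERRb-DBDm6, 21 and 26.7 in KO/ERRb-AF2M6, and 2.69 and 3.27 in KO/ERRg-wt. Clone 9-6 was just above KO/Mock and below KO/ERRg-wt. Serpina3m (chromosome 12, 104387164 to 104394257, plus strand, 5 exon entries) had 0.3 and 0.618 CPM in WT/Mock, 1.23 and 1.36 in KO/Mock, 1.26 and 1.05 in KO/ERRb-wt, 2.48 and 2.66 in KO/ERRb-DBDm3, 10.5 and 8.96 in KO/ERRb-DBDm6, 15.6 and 16.7 in KO/ERRb-AF2M6, and 2.22 and 1.5 in KO/ERRg-wt. Its 3 mutant groups did not overlap with one another. Serpina3m belongs to a cluster of near-identical genes and reads that align to several places were not counted, so its level is uncertain.

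Gprc5c (chromosome 11, 114851532 to 114872617, plus strand, 13 exon entries) had 16.1 and 10.1 CPM in WT/Mock, 2.09 and 3.03 in KO/Mock, 10.3 and 5.82 in KO/ERRb-wt, 13.3 and 30.3 in KO/ERRb-DBDm3, 29.9 and 32.1 in KO/ERRb-DBDm6, 29.8 and 33.3 in KO/ERRb-AF2M6, and 29.2 and 23.1 in KO/ERRg-wt. WT/Mock clone 5-2 exceeded KO/ERRb-DBDm3 clone 9-6, so wild-type and mutant clones overlapped for this gene. Napsa (chromosome 7, 44572445 to 44586846, plus strand, 9 exon entries) had 0.879 and 1.13 CPM in WT/Mock, 0.569 and 0.606 in KO/Mock, 0.742 and 0.759 in KO/ERRb-wt, 3.13 and 3.71 in KO/ERRb-DBDm3, 5.95 and 11.0 in KO/ERRb-DBDm6, 4.62 and 4.89 in KO/ERRb-AF2M6, and 6.1 and 6.79 in KO/ERRg-wt. Its KO/ERRg-wt clones exceeded 5 of the 6 mutant clones. Per kilobase of exon, the mutant group means ran from 22.5 to 26.1 CPM for Trpm1 and from 13.6 to 34.0 for Ptprtos, and from 1.26 to 9.74 for the other 8 genes, so Trpm1 and Ptprtos had the highest levels per length. In WT/Mock, Gprc5c was highest per length, at 2.81 CPM per kilobase.

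Against WT/Mock, the knockout without an added receptor moved the 10 genes both ways, given here as description since the KO/Mock levels served in the choice. Fgfr2 (log2 difference 2.86 ± 0.499 standard error, n = 2 clones per group), Serpina3m (1.5 ± 0.302) and Trpm1 (1.30 ± 0.33) passed the threshold as higher in KO/Mock. Gprc5c (-2.35 ± 0.411), Lama3 (-1.20 ± 0.30) and Ttc39c (-1.02 ± 0.235) passed as lower. That is 3 of 10 in each direction, where 18% of all tested genes were called higher and 19.4% lower.

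The KO/ERRg-wt and WT/Mock groups had no part in the choice, and 8 of the 10 genes were higher in KO/ERRg-wt, with none lower. Of all tested genes, 14.2% were called higher and 13.9% lower in this comparison. The median log2 difference of the 10 genes was 2.35, beside 0.01 over all tested genes, and both KO/ERRg-wt clones were above both WT/Mock clones for all 10. That order held for 37.8% of all tested genes. Ptprtos was higher by 4.10 ± 0.622 on the log2 scale, a fold of 17.2 (edgeR adjusted p = 0.000964). Trpm1 was higher by 3.35 ± 0.338, a fold of 10.2 (adjusted p = 0.000105). Napsa, the protease, was higher by 2.68 ± 0.283 (adjusted p = 0.000123). Fgfr2 (2.7 ± 0.516), Zfp951 (2.79 ± 0.695), Serpina3m (2.02 ± 0.306), Lama3 (1.87 ± 0.274) and Ttc39c (1.07 ± 0.222) also passed the threshold. Olig2 (1.73 ± 0.706, adjusted p = 0.0893) and Gprc5c (0.99 ± 0.368, adjusted p = 0.0655) did not. For Zfp951 the call was lost without WT/Mock clone 5-2 or without KO/ERRg-wt clone 14-11, and by limma-voom or with no filter on low counts, and Fgfr2 was not called by limma-voom. The KO/ERRg-wt clones carry no mutant receptor and share the chromosome 8 shift, and part of the chromosome 6 shift, with the mutant clones; the part of these shifts in the result was not tested.

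**Figure D2:**
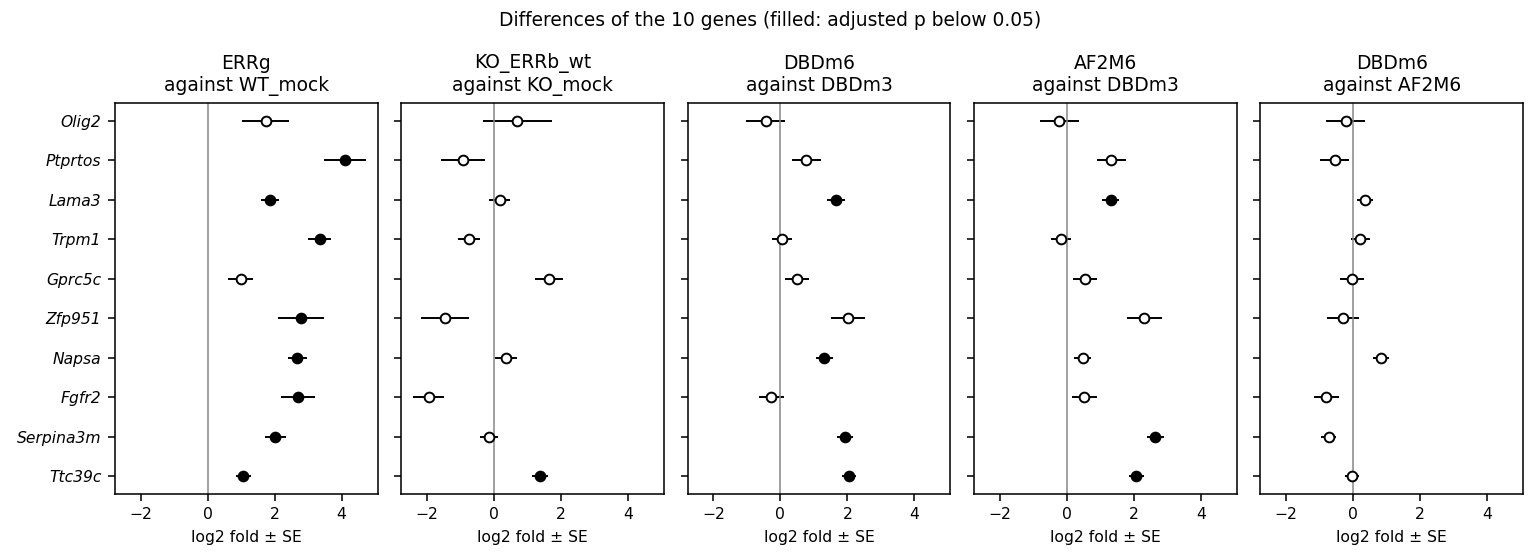
Log2 fold (horizontal axis) with its standard error for each of the 10 genes (vertical axis) in 5 comparisons, 1 panel each; filled points passed an adjusted p of 0.05, and only the first panel is free of the choice of genes. In the first panel, KO/ERRg-wt against WT/Mock, all 10 points are to the right of 0 and 8 are filled, and in the last panel none is filled.

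KO/ERRb-wt and KO/Mock levels both served in the choice, so their difference is a description. Ttc39c passed the threshold as higher in KO/ERRb-wt (log2 difference 1.37 ± 0.233), which was lost when any 1 of the 4 clones was left out. Of all tested genes, 1.07% were called higher and 0.781% lower. Fgfr2 (-1.95 ± 0.46) and Gprc5c (1.65 ± 0.413) did not pass. Both passed in DESeq2 and when the model held only these 4 clones. For these 3 genes the KO/ERRb-wt mean lay on the WT/Mock side of the KO/Mock mean. The KO/ERRb-wt and KO/Mock clones did not overlap for 7 of the chosen genes, Fgfr2 and Gprc5c among them. That share was not computed over all tested genes, so nothing is read from it.

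The differences among the mutant groups are likewise a description, since their levels chose the genes. Lama3 (1.66 ± 0.256), Napsa (1.31 ± 0.253), Serpina3m (1.92 ± 0.239) and Ttc39c (2.05 ± 0.219) passed the threshold as higher in KO/ERRb-DBDm6 than in KO/ERRb-DBDm3, where 1.63% of all tested genes were called higher and 1.42% lower. Lama3 (1.31 ± 0.255), Serpina3m (2.65 ± 0.242) and Ttc39c (2.08 ± 0.219) passed as higher in KO/ERRb-AF2M6 than in KO/ERRb-DBDm3, where 0.223% of all tested genes were called higher and 0.42% lower. For Lama3 the second call was lost in 7 of 12 alternatives. None of the 10 was called lower in either comparison. The KO/ERRb-DBDm3 clones are shared by both comparisons. Zfp951 was at 2.02 ± 0.522 and 2.32 ± 0.525 without passing.

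With only the 4 clones of a comparison in the model, 0 genes of the whole table were called in either comparison, with 1674 and 686 genes at an unadjusted p under 0.05 for KO/ERRb-DBDm6 and KO/ERRb-AF2M6. Clone 9-8 was above clone 9-6 for all 10 genes, and for 49.6% of all tested genes. The ratio had a median of 2.12 over the 10, and it was highest for Olig2 (5.78) and Zfp951 (4.97) and lowest for Serpina3m (1.07). Without clone 9-6, which has the smaller chromosome 6 shift, KO/ERRb-DBDm3 rests on clone 9-8 alone, so the values are a description. Log2 differences of KO/ERRb-DBDm6 from that clone were 1.23 for Lama3, 1.87 for Serpina3m, 1.78 for Ttc39c, 1.19 for Napsa and 1.28 for Zfp951. Olig2 was at -1.21. Without clone 9-8 instead, Olig2 was at 1.32, so the direction for Olig2 turned on which clone stood for the group.

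Between KO/ERRb-DBDm6 and KO/ERRb-AF2M6, edgeR called none of the 10 genes, and 0% of all tested genes in either direction. At an unadjusted p under 0.05 there were 2119 genes, including Napsa (0.83 ± 0.249) and Serpina3m (-0.73 ± 0.223). DESeq2 called 178 genes, among them Serpina3m, and limma-voom called 0. The estimates for Ttc39c (-0.03 ± 0.205) and Gprc5c (-0.03 ± 0.355) were the nearest to 0, and that for Fgfr2 (-0.80 ± 0.377) was the farthest with overlapping clones.

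By the median over the 10 genes, the 5 clones at the full chromosome 6 shift were highest and the 3 at a partial shift were intermediate. The median over the 10 genes of the log2 difference from WT/Mock was between 0.01 and 0.38 in the 4 comparison clones, 1.99 in clone 9-6, 2.36 and 2.47 in the KO/ERRg-wt clones, 3.44 in clone 9-8 and between 3.74 and 4.2 in the KO/ERRb-DBDm6 and KO/ERRb-AF2M6 clones. Clone 9-6, with a chromosome 6 median of -0.414, was nearer in both measures to the KO/ERRg-wt clones, at -0.336 and -0.337, than to clone 9-8 of its own group, at -0.926. Over the rest of the transcriptome, given below, clone 9-6 was nearer to clone 9-8 than to the KO/ERRg-wt clones. Among the 5 clones at the full shift, clone 9-8 was still below the other 4 for 6 genes (Ptprtos, Lama3, Zfp951, Napsa, Serpina3m and Ttc39c), above them for Olig2 and Trpm1, and within their range for Gprc5c and Fgfr2. Single genes departed from the order. Both KO/ERRg-wt clones were above 4 of the 5 clones at the full shift for Napsa and above clone 9-8 for Ttc39c, and clone 9-6 was above clones 10-26 and 32-25 for Fgfr2. This order is a description, since mutant clones chose the genes, and construct, chromosome shift and clone history cannot be told apart in it.

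**Figure D3:**
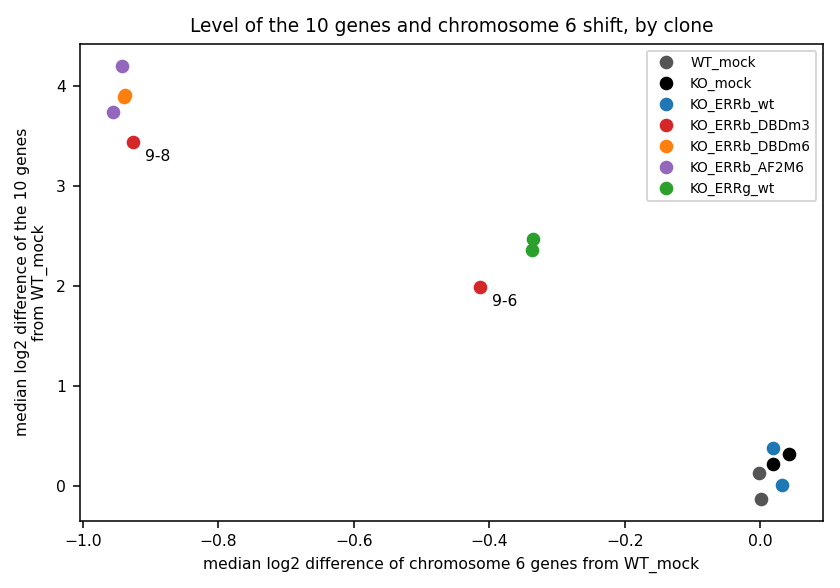
Median log2 difference from WT_mock of the 10 genes (vertical axis) against that of chromosome 6 genes (horizontal axis), 1 point per clone, coloured by group. In these medians clone 9-6 at 1.99 lies near the KO_ERRg_wt clones at 2.36 and 2.47, while clone 9-8 at 3.44 lies near the remaining mutant clones.

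The distance between clones was also taken over the rest of the transcriptome. Over 13183 tested genes outside chromosomes 6, 8 and 14 and without the 10, the root mean square log2 difference between mutant clones of different constructs averaged 0.589 (0.403 to 0.706). It averaged 0.806 from mutant to KO/Mock clones, 0.845 to KO/ERRg-wt, 0.864 to KO/ERRb-wt and 0.988 to WT/Mock. The KO/ERRg-wt clones averaged 0.863 from KO/ERRb-DBDm3, 0.764 from KO/ERRb-DBDm6 and 0.908 from KO/ERRb-AF2M6. Their averages were 0.792 from KO/ERRb-wt, 0.807 from WT/Mock and 0.931 from KO/Mock. Among the other groups, KO/Mock and KO/ERRb-wt clones were at 0.547 on average and WT/Mock and KO/ERRb-wt clones at 0.611, the first below and the second above the mean between mutant constructs. The clone nearest to each KO/ERRb-DBDm3 clone was KO/ERRb-AF2M6 clone 32-25, at 0.517 for 9-6 and 0.634 for 9-8, beside 0.662 between 9-6 and 9-8. Clone 32-25 in turn was nearest to KO/ERRb-DBDm6 clone 10-24, at 0.403, beside 0.556 to the other clone of its own group. In the remaining 11 clones the nearest clone was of the same group. Of the mutant clones, 9-6 was nearest to KO/Mock, at 0.59. It was at 0.774 and 0.77 from the KO/ERRg-wt clones, farther than from clone 9-8.

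**Figure D4:**
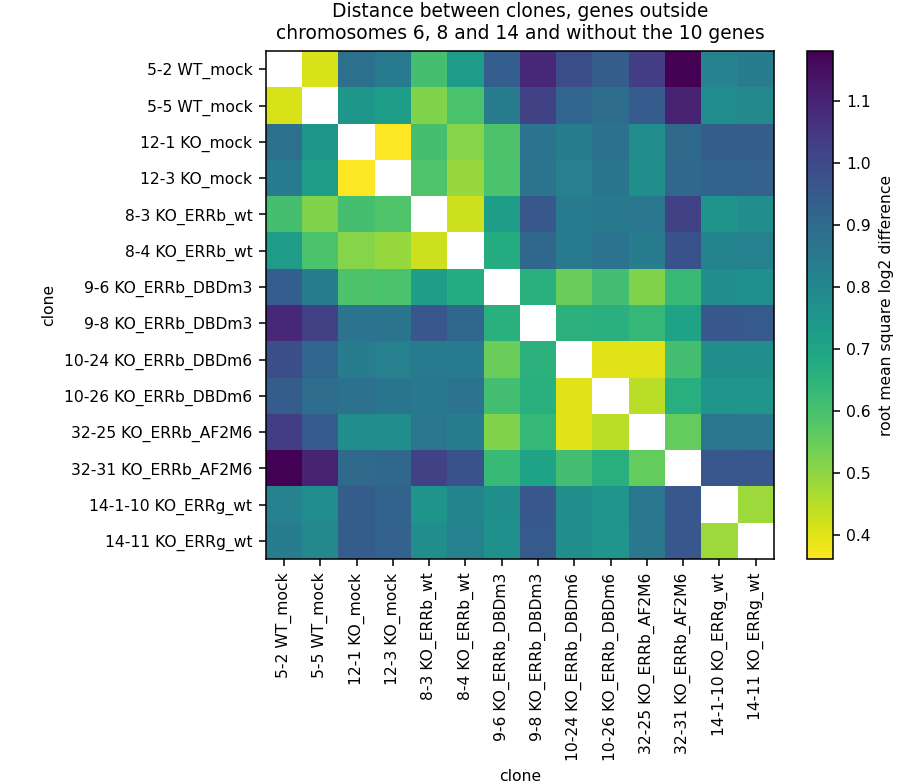
Root mean square log2 difference between each pair of the 14 clones (both axes, labelled by clone and group) over tested genes outside chromosomes 6, 8 and 14 and without the 10 genes; lighter means nearer. Distances between mutant clones of different constructs ran from 0.403 to 0.706, and KO_mock and KO_ERRb_wt clones were at 0.547 on average.

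Many other genes had the same profile. By Pearson correlation over the 14 clones with the mean standardised level of the 10, 534 tested genes reached 0.9, and the clones share group, depth and chromosome shifts in all of them. The nearest were Nfkbia (0.985), the inhibitor of NF-kappa-B, at 17.5 CPM in WT/Mock, 21.1 in KO/Mock and 65.8 in KO/ERRb-DBDm6, then Ldb1 (0.982), Klhl24 (0.982), Actr10 (0.98), Chmp5 (0.978), Usp17lb (0.977), Vamp3 (0.976), Rbmxl2 (0.975), Oxsr1 (0.975) and Ush1c (0.975). Their changes differed in size. Ldb1, a LIM domain binding cofactor, had 97.7 CPM in WT/Mock and 187 in KO/ERRb-DBDm6. Between the same groups, Actr10 went from 51.5 to 68.8 CPM and Oxsr1 from 153 to 196 CPM. Rbmxl2 changed more, from 11.7 to 53.9 CPM, as did Ush1c, a scaffold protein of hair cells, from 0.447 to 3.21 CPM. Usp17lb went from 0 to 0.301 CPM. Among the 10 themselves, the correlation was highest between Ptprtos and Trpm1 (0.969) and lowest between Gprc5c and Fgfr2 (0.452).

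Within 500 kb, 114 other genes were tested, and 25 of them (21.9%) were called higher in at least 3 of the 4 contrasts of KO/ERRb-DBDm3, KO/ERRb-DBDm6, KO/ERRb-AF2M6 and KO/ERRg-wt against KO/Mock, beside 12.6% of all tested genes. The contrasts share the KO/Mock clones. In KO/ERRg-wt against KO/Mock, 20% of all tested genes were called higher and 32 of the 114 neighbours were. Urb1, Apba2 and Izumo2 were the 3 neighbours lower in at least 3 contrasts, and that share was not computed over all tested genes. In the 4 contrasts in turn, 1.75%, 8.77%, 5.26% and 8.77% of the neighbours were lower. Of all tested genes, 13.3%, 20.6%, 19.1% and 18.3% were. No neighbour lies on chromosome 6, 8 or 14, while the shares over all tested genes include them. Chromosomes 6 and 8 were lower in these 4 groups than in KO/Mock, a group that also served in the choice. Shares without those chromosomes were not computed, so the gap in either direction is not read as an effect of position. Within 100 kb, 4 of 23 were higher in at least 3 contrasts (17.4%).

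Olig1, the paralog 41.1 kb from Olig2, rose from 0.79 CPM in KO/Mock to 4.8, 5.6, 6.01 and 3.24 CPM in KO/ERRb-DBDm3, KO/ERRb-DBDm6, KO/ERRb-AF2M6 and KO/ERRg-wt, with log2 differences of 2.59 ± 0.451, 2.82 ± 0.45, 2.93 ± 0.45 and 2.04 ± 0.464. The receptor gene Ifnar2, 144 kb from Olig2, rose by 1.06 to 1.39 in the same 4 contrasts, and Ifngr2 rose in the 3 mutant contrasts. Dnajc28, Gart and Cryzl1 were the other neighbours of Olig2 that rose. Near Gprc5c, Cd300a, an immunoglobulin receptor of myeloid cells, went from 1 count in KO/Mock to between 0.582 and 0.666 CPM in the mutant groups, and Ttyh2 and Fads6 rose too. Near Napsa, the kallikrein Klk1 rose by 1.99 to 2.15 in the 4 contrasts, and Tbc1d17, Fuz, Ap2a1, Tsks and Bcl2l12 also rose. Near Lama3 and Ttc39c, the cholesterol transporter Npc1 rose by 0.38 to 0.74, and Riok3 and Osbpl1a rose as well. The others that rose were Otud7a and Mcee near Trpm1, Spp1 and Pkd2 near Zfp951, Tacc2 near Fgfr2 and Serpina3i near Serpina3m, which rose by 1.04 to 1.40 in the mutant groups. Ptprt, which overlaps Ptprtos on the other strand, was called higher in KO/ERRb-DBDm3 (3.30, adjusted p = 0.00939), where clone 9-8 carried the level, and in none of the other 3 contrasts.

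**Figure D5:**
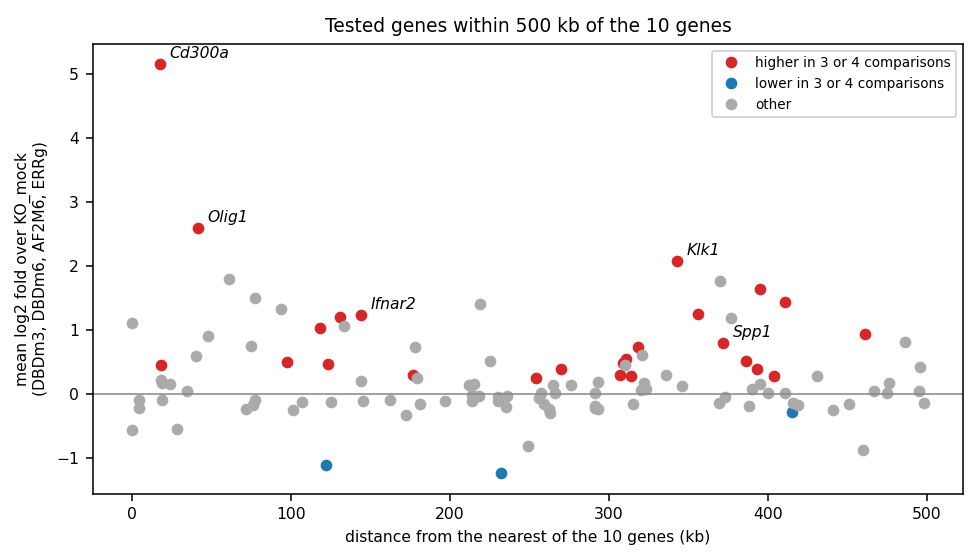
Mean of the 4 log2 folds over KO_mock (vertical axis) of the 114 tested genes within 500 kb, against the distance from the nearest of the 10 genes (horizontal axis, kb). Red points were called higher, and blue ones lower, in at least 3 contrasts; Olig1 and Cd300a stand highest, and the fitted value of Cd300a rests on 1 count in KO_mock.

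Of 11 tested neural progenitor and oligodendrocyte genes other than Olig2, 4 were higher and 3 lower in KO/ERRb-DBDm6 against KO/Mock, where 20.8% of all tested genes were higher and 20.6% lower. In KO/ERRb-DBDm3, KO/ERRb-AF2M6 and KO/ERRg-wt, 13.3%, 19.1% and 18.3% of all tested genes were lower. Mbp, the myelin basic protein gene, was higher (1.96 ± 0.157, edgeR adjusted p = 1.15e-05), as were Olig1 and the eye and neural factor Pax6 (2.56 ± 0.504), while Sox1, a neural plate factor on chromosome 8, was lower (-2.04 ± 0.277). Mbp was also higher in KO/ERRb-DBDm3 (1.82 ± 0.156), in KO/ERRb-AF2M6 (2.15 ± 0.157) and in KO/ERRg-wt (0.91 ± 0.157). The list median was -0.05 in KO/ERRb-DBDm6 and 0.55 in KO/ERRb-AF2M6, where 5 were higher and 2 lower.

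Of 18 tested laminins and epithelial adhesion genes, 2 were higher and 4 lower in KO/ERRb-DBDm6 against KO/Mock, and 0 were higher and 6 lower in KO/ERRb-AF2M6. Of all tested genes, 20.8% were higher and 20.6% lower in KO/ERRb-DBDm6, and 18% and 19.1% in KO/ERRb-AF2M6. The 4 of 18 lower in KO/ERRb-DBDm6 is near the share over all tested genes. Lamb3, which encodes a chain that joins Lama3 in laminin-332, was not called in either contrast (0.40 ± 0.33 and 0.32 ± 0.33).

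FGF-MAPK feedback genes, which FGF receptor signalling is known to induce, were more often lower than higher. Of 12 genes of the FGF-MAPK feedback list, 5, 7 and 6 were lower and 1 was higher in KO/ERRb-DBDm3, KO/ERRb-DBDm6 and KO/ERRb-AF2M6 against KO/Mock, with list medians of -0.42, -1.08 and -0.83. The shares of all tested genes lower in these contrasts were 13.3%, 20.6% and 19.1%. The phosphatase gene Dusp6 had 85.7 and 75.9 CPM in KO/Mock, 53.8 and 32.2 in KO/ERRb-DBDm3, 25.2 and 19.6 in KO/ERRb-DBDm6 and 27.8 and 28.8 in KO/ERRb-AF2M6. Its difference was -1.85 ± 0.205 in KO/ERRb-DBDm6 (edgeR adjusted p = 7.43e-05). Spry4, an inhibitor of the pathway, fell from 71.9 to 1.05 CPM in KO/ERRb-DBDm6, and Egr1 and Spred1 were lower in the 3 groups, while the ETS factor Etv5 was the gene that was higher. In KO/ERRg-wt against KO/Mock, 6 of the 12 were lower, beside 18.3% of all tested genes. Fgfr2 was at -0.15 ± 0.429 in that contrast and was not called. The medium holds PD, an inhibitor of the MEK kinase of this pathway. The part of Fgfr2 or of PD in the levels of the feedback genes was not tested. Of 17 FGF receptors, ligands and adaptors other than Fgfr2, 1 was higher and 2 lower in KO/ERRb-DBDm6, with Fgfr1, on chromosome 8, lower (-0.73 ± 0.15).

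Mitf, a master regulator of the melanocytes in which Trpm1 is known, lies on chromosome 6. It had 28.6 and 33.7 CPM in WT/Mock, 83.5 and 81.5 in KO/Mock, 59.8 and 61.9 in KO/ERRb-wt and 66.5 and 64.7 in KO/ERRg-wt. In the mutant groups it had 55.7 and 18.8 CPM in KO/ERRb-DBDm3, 21.8 and 23.5 in KO/ERRb-DBDm6 and 23.4 and 24.4 in KO/ERRb-AF2M6. KO/Mock was higher than WT/Mock by log2 1.41 ± 0.337. Against KO/Mock, Mitf was lower by log2 -1.87 ± 0.343 in KO/ERRb-DBDm6 (edgeR adjusted p = 0.00148). The chromosome 6 medians of the KO/ERRb-DBDm6 clones, -0.938 and -0.939, are relative to WT/Mock. None of the other 3 tested melanocyte genes was called in KO/ERRb-DBDm6 against KO/Mock, and of 5 other TRPM channels Trpm4 was higher (0.60 ± 0.196). In KO/ERRb-DBDm3 against KO/Mock, the melanocyte gene Mlana was called higher (1.59 ± 0.535), as were 12.4% of all tested genes. In KO/ERRb-AF2M6 against KO/Mock, 0 of the 4 melanocyte genes were higher. Pga5, a pepsinogen from the protease family of Napsa, was higher in all 4 groups against KO/Mock (2.52 ± 0.558, 3.82 ± 0.538, 4.12 ± 0.537 and 2.40 ± 0.587), and 3 of 4 tested proteases of that family rose in KO/ERRb-DBDm6. Among smaller families, Gprc5b (0.70 ± 0.171) and Ttc39b (0.33 ± 0.0815) were higher in KO/ERRb-DBDm6, each 1 of 2 tested genes of its family. Of 4 tested receptor phosphatases of the Ptprt class, 1 was higher, Ptprm (2.42 ± 0.41), and 1 was lower. Of all tested genes, 20.8% were higher and 20.6% lower in that contrast.

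The 8 markers of 2-cell-like cells, a rare state of ESC cultures, summed to between 0.0201 and 0.165 CPM in the WT/Mock and comparison clones, 0.0379 in clone 9-6 and 1.39 CPM in the other KO/ERRb-DBDm3 clone, 1.72 and 2.55 in KO/ERRb-DBDm6, 0.557 and 1.17 in KO/ERRb-AF2M6 and 0.108 and 0.276 in KO/ERRg-wt. Zscan4d (5.54 ± 1.51, edgeR adjusted p = 0.0129) and Zscan4c (5.12 ± 1.37, adjusted p = 0.0154), near-identical copies whose counts are uncertain, were higher in KO/ERRb-DBDm6 against KO/Mock, where KO/Mock had 1 count of each. The 10 trophoblast markers summed to 64.0 to 83.4 CPM in WT/Mock and comparison clones 128 to 194 CPM in mutant clones and 110 to 118 CPM in KO/ERRg-wt, with Tfap2c at 116 CPM in KO/ERRb-DBDm6 and 32.5 in KO/Mock, while Cdx2 and Eomes, which define the lineage, were lower there (-1.90 ± 0.47 and -1.37 ± 0.204). The 10 fibroblast markers summed to 87.1 to 105 CPM in WT/Mock and 140 to 197 CPM in comparison clones. They summed to 176 to 265 CPM in mutant clones and 262 to 272 CPM in KO/ERRg-wt, nearly all of it Vim. The fibroblast gene Postn had 0 counts in every clone. In the same order, the 10 primitive endoderm markers summed to 115 to 118, 161 to 200, 94.5 to 209 and 159 to 172 CPM. The 8 mesoderm markers summed to 17.5 to 25.3, 49.5 to 69.7, 10.5 to 46.6 and 8.84 to 11.9 CPM. For mesoderm the WT/Mock clones lay within the mutant range. The 10 keratinocyte and surface epithelium markers summed to 887 to 904, 810 to 939, 677 to 785 and 640 to 666 CPM. Cdh1 (528 CPM) and Epcam (233 CPM) made most of that sum in KO/Mock. In these bulk libraries more cells of a type and more RNA per cell cannot be told apart, and the part of the 2-cell-like and trophoblast markers in the levels of the 10 genes was not tested.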

How the data were processed

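Total RNA of the ESC clones was depleted of ribosomal RNA and sequenced as strand-specific single-end reads of 100 bp, per the labels' protocols. Per the submitters' processing notes, reads were aligned with STAR 2.7.8a to mm10 and counted with featureCounts 2.0.10, while the file header gives version 2.0.1. The deposited counts are whole reads per gene symbol over exons, on the reverse strand, with reads in overlapping genes counted for each and multi-mapping reads not counted, per the file headers. The growth protocol and the design text differ on whether the medium held LIF.

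The 10 genes, the gene lists, tests and alternatives were chosen with earlier results of these data known. Named genes are the 10; up to 4 members of a list by smallest p; neighbours within 500 kb called in at least 3 of 4 contrasts; and the 10 most correlated tested genes, passing over unnamed predicted ones. Lamb3, Spry4, Postn, Vim and Ptprt fall outside this rule and were named after their values were seen.

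Counts of the 2 libraries of each clone were summed (clone totals 25103562 to 54105869), so n = 2 clones per group. edgeR 4.0.16 in R 4.3.3 (filterByExpr, TMM, robust quasi-likelihood, 1 mean per group over 14 clones, 7 residual degrees of freedom) tested 15238 genes; p-values were adjusted by Benjamini-Hochberg and called under 0.05. Standard errors are the absolute log2 fold over the square root of F, and folds use a prior count of 0.125. For 4 of the 5 comparisons set out as tests, the choice of genes used both groups, so they are described and no p is read. The count fit was tested on simulated data. Alternatives were DESeq2 1.42.0, limma-voom (limma 3.58.1), no TMM, no filter, only the 4 clones compared, no chromosome 6, 8 and 14 genes, the first library of each clone, a replicate block, and leaving out each clone. Neighbours and overlaps came from the mm10 GENCODE annotation, and promoters from RefSeq. Some list members and neighbours that the rule names are not reported here.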

Additional observations from a re-analysis of the deposited data

Results flagged for a closer look

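Of 60 groups of 4 libraries (10 genes in 6 groups), 3 held a library whose gap to the next exceeded Dixon's critical value. For 4 independent samples, chance alone exceeds that value in about 1 in 20. These were 2 libraries from each of 2 clones, so that rate does not apply and the flags are a description. Zfp951 in library 2 of KO/Mock clone 12-1 was at 1.17 CPM, below 1.27 to 1.28 in the other 3 libraries. Library 1 of KO/ERRb-DBDm6 clone 10-24 stood apart for both Zfp951 (29.6 CPM, the others 14.4 to 16.9) and Serpina3m (11.8 CPM, the others 8.85 to 9.29).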

How the results depend on the processing

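The count of the 10 genes called in KO/ERRg-wt against WT/Mock (8) stayed within 1.5 times under every alternative run, from 6 with limma-voom to 10 with only the 4 clones, and 7 to 8 with a clone left out. For KO/ERRb-wt against KO/Mock the count of 1 became 3 with DESeq2, 5 with only the 4 clones and 0 without any 1 clone (0 to 0). For KO/ERRb-DBDm6 against KO/ERRb-DBDm3 the count of 4 became 0 with only the 4 clones and ran from 2 to 7 with a clone left out, and for KO/ERRb-AF2M6 against KO/ERRb-DBDm3 the count of 3 became 0 with only the 4 clones and ran from 2 to 6. Between KO/ERRb-DBDm6 and KO/ERRb-AF2M6 the count of 0 became 1 with DESeq2. Higher neighbours were 25 within 500 kb and 4 within 100 kb, where fewer genes lie. The mean distance of mutant from KO/ERRg-wt clones was 0.845, and 0.854 over all tested genes. Over all tested genes the count of calls was 4284 in KO/ERRg-wt against WT/Mock and 1960 without clone 14-1-10; in KO/ERRb-wt against KO/Mock it was 282 and 930 with DESeq2, 1563 with only the 4 clones and 8 without clone 12-1; in KO/ERRb-DBDm6 against KO/ERRb-DBDm3 it was 466 and 1278 with DESeq2, 0 with only the 4 clones and 2018 without clone 9-6; in KO/ERRb-AF2M6 against KO/ERRb-DBDm3 it was 98 and 554 with DESeq2, 0 with only the 4 clones and 1547 without clone 9-6. Differences between libraries 1 and 2 of a clone correlated between clones with a median of 0.009, from -0.194 to 0.535. The correlation exceeded 0.1 in 15 of 66 pairs of clones, so some clones may share a difference by library number, which was not tested. With the number as a replicate block and the clone as a random term (limma-voom, KO/ERRg-wt left out), 1, 5, 5 and 0 of the 10 genes were called in the other 4 comparisons, with 550, 1078, 417 and 0 calls over all genes. Olig2 changed sign in KO/ERRb-DBDm6 against KO/ERRb-DBDm3 (-0.44), to 0.14 with limma-voom, 0.16 with the replicate block and from -1.21 to 1.32 with a clone left out, and in KO/ERRb-AF2M6 against KO/ERRb-DBDm3 (-0.22), to 0.35, 0.37 and from -0.99 to 1.53; the cause was not tested. With no TMM factors, 263 of 355 calls in KO/ERRb-wt against KO/Mock were higher, beside 163 of 282. Without clone 32-25, 539 genes were called between KO/ERRb-DBDm6 and KO/ERRb-AF2M6, beside 0. Among alternative values of single genes, 282 kept their call status, 26 lost a call and 24 gained one. Another 6 changed sign and were counted apart, whatever their call. Genes called in no setting of a comparison were left out of these counts. A fit that leaves out a clone assumes that the lone clone varies like the other groups. The 2 clones per group limit every test, and genes under 1 CPM, such as Olig2 in KO/Mock, rest on few counts.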
